A study of Mus musculus with 4 samples.

Results

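H3K9me3 regions lying at the starts of protein-coding genes were examined in mouse embryonic stem (ES) cells. They comprised every autosomal region of the H3K9me3 list that was at most 5000 bp wide, came within 1 kb of where a protein-coding gene starts, and overlapped no H3K36me3 region. The start was the outermost annotated 5′ end of the gene. Of 32502 H3K9me3 regions, 32295 were autosomal and 4249 of these came within 1 kb of a start. Of the latter, 126 were wider than 5000 bp and a further 88 overlapped H3K36me3, which left 4035 regions. These made up 13.7% (95% Wilson interval 13.4 to 14.1) of the 29349 autosomal regions that met the limits on width and overlap, and the other 25314 regions served as the comparison.

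Chromatin immunoprecipitation and sequencing (ChIP-seq) of H3K9me3 and H3K36me3 had been carried out in wild-type (WT) cells and in H3.3 G34R cells, with 1 library for each of the 4 combinations. WT cells were unmodified cells of the 129S1/SvImJ strain with intact H3f3a and H3f3b genes. G34R cells carried a glycine to arginine substitution in a single targeted copy of H3f3a, which was expressed from its own promoter after Cre recombination had removed a WT minigene and its selection cassette, while H3f3b was left WT. All were cultured ES cells, and more than 1 mutant clone was made, but which of them gave the ChIP-seq libraries is not given in the sources used here. The study asked whether the mutant histone altered these marks by interfering with KDM4 demethylases, which act on both. A region entered a list when its mark was high in WT or in G34R cells, and the lists do not say in which. There were no read values, so that the depth is unknown and WT cannot be compared with G34R cells here. Intervals cover counting error only, since neither regions nor genes stand in for replicate libraries, and p-values are not given.

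H3K9me3 is the trimethylated form of a lysine in the tail of histone H3 and is bound by heterochromatin protein 1. It is known for silencing repeats, imprinted alleles and germline genes, and in ES cells it is deposited largely by Setdb1 and the Suv39h enzymes. H3K36me3 is laid down by Setd2 along the bodies of transcribed genes and is low at their starts. Most starts rich in CpG (CpG islands) are free of DNA methylation, and those of developmental regulators are held by Polycomb complexes in ES cells.

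Positions relative to the start were read from the annotation that the rule itself used, so they describe the regions and do not check the label. The base at the start itself lay within the region for 2381 of the 4035 regions (59.0%, 57.5 to 60.5). A further 1486 (36.8%) lay wholly downstream, with the near edge a median of 274 bp after the start (quartiles 100 and 586 bp). The remaining 168 (4.16%) lay wholly upstream. Bins had been retained only where they touched annotated genes, and this governs the upstream count. Where another gene lay upstream, 168 of 940 regions (17.9%) were upstream of the start. Where none did, 0 of 3095 were, a count that the retention of bins largely fixed. The rule places every region within 1 kb of a start, and within that limit most covered the start or lay after it. Their reach into sequence before the start was not measured for most genes.

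Reference sequence from inside the regions shows how widely they differed in base composition. The stretches below run from the edge of the region, or from 200 bases before the start, to the last base before the start. They are written 5′ to 3′ along the gene from NCBIM37 (equivalent to mm9), are free of annotated exons, and have every CpG in capitals. They come from the reference assembly and not from the cells studied. Where no other gene lay upstream, the edge of the region follows the 200 bp bins and is not a measured limit of the mark. Shown first is the start with the second highest G+C among the 1164 candidate regions, which held at least 100 exon-free bases before the start, Bicc1, which encodes an RNA-binding protein. Next come Pax6, the transcription factor of eye and brain development, and Wt1, the transcription factor of kidney and gonad. Mael, a factor of the piRNA pathway, and Brdt, the testis bromodomain protein, are germline genes, and Zfp768 encodes a zinc finger protein. The lowest G+C was found at 9530002B09Rik and A830031A19Rik.
Bicc1, chr10:70622449-70622600, minus strand: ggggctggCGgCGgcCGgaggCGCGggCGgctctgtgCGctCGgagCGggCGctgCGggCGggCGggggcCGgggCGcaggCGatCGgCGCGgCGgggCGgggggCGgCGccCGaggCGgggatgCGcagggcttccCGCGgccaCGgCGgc
Pax6, chr2:105508853-105509052, plus strand: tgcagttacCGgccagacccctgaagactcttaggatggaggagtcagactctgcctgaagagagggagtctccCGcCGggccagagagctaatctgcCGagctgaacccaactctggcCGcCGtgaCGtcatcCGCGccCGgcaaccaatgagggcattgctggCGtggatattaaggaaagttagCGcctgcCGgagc
Wt1, chr2:104966486-104966685, plus strand: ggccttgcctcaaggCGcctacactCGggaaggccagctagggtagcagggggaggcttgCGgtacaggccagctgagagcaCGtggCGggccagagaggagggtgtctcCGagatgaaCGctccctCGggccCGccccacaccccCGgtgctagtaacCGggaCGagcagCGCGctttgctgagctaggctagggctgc
Mael, chr1:168168876-168169000, minus strand: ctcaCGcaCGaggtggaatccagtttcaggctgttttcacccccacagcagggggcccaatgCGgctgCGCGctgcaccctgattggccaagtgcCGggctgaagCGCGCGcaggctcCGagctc
Brdt, chr5:107760001-107760177, plus strand: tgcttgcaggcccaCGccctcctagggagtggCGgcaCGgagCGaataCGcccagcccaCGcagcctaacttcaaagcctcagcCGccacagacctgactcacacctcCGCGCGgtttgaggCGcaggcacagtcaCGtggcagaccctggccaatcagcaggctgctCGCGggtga
Zfp768, chr7:134488899-134489000, minus strand: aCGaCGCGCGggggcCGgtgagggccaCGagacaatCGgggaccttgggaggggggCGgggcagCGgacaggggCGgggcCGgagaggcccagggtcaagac
9530002B09Rik, chr4:122366401-122366517, plus strand: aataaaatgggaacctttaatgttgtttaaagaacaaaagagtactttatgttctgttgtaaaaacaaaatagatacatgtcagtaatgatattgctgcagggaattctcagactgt
A830031A19Rik, chr11:23975055-23975200, minus strand: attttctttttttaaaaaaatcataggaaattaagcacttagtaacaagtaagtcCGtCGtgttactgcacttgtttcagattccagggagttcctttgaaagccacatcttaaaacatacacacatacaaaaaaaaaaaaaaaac

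The stretch at Bicc1 had 88.2% G+C and 30 CpG in 152 bases. At Pax6 there were 13 CpG in 200 bases (60.5% G+C) and at Wt1 14 (68.0%). Mael had 10 in 125 bases and Brdt 14 in 177 bases. At 9530002B09Rik there was 0 in 117 bases (29.9% G+C). Counted over all starts, the 200 bases upstream held a median of 13 CpG (quartiles 5 and 20) at the 4007 starts with one of these regions and 6 (quartiles 2 and 14) at the 17411 other starts. The groups overlapped widely, as these quartiles show.

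In all, 4007 of 21418 autosomal protein-coding starts (18.7%) had such a region, and these belonged to 3991 gene symbols. One start was reached by 3791 regions, 2 starts by 237 and 3 starts by 7. Among the last were a region of 3000 bp at the starts of Gm20481 and of the heat shock genes Hspa1a and Hspa1l (chr17:35106001-35109000), and a pair of regions on either side of the overlapping starts of Tap1 and Psmb9 (chr17:34323001-34324000 and chr17:34325001-34325600), genes of antigen presentation. At 272 starts there were 2 or more regions.

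The regions at starts were wider than the other regions. The rule fixes part of this difference, since a wider region is more likely to come within 1 kb of a start. Their median width was 1000 bp (quartiles 600 and 1600 bp), against 800 bp (quartiles 600 and 1000 bp) elsewhere. Exactly 600 bp, the smallest width in the list, was the width of 30.2% of the regions at starts and of 47.5% of the others. At least 2000 bp was reached by 19% (17.8 to 20.2) and by 6.86% (6.55 to 7.18), respectively. The 9 widest were 5000 bp. Among them were Foxf2, Foxe1, Irx6, Ebf2 and Lmx1b, all transcription factors of development, together with Efna3, an ephrin ligand, Ptprt, a receptor phosphatase, Ppp2r2c, a phosphatase subunit, and Hapln4, a protein of the neural matrix. A further 7 had 4800 bp, among them Hic1, a transcriptional repressor (chr11:74978401-74983200). At Hic1 and each of the 9 genes the H3K36me3 within the gene was 0 bp. Most genes with a region at the start had none either, as 21.8% of all 4007 had any. Beyond the width limit, 9 regions of 5200 bp lay just outside the rule, as many as the 9 of 5000 bp just inside it. Near the limit on distance, 102 regions had their near edge more than 900 and up to 1000 bp from a start and 100 more than 1000 and up to 1100 bp, with median widths of 600 and 800 bp.

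**Figure D1:**
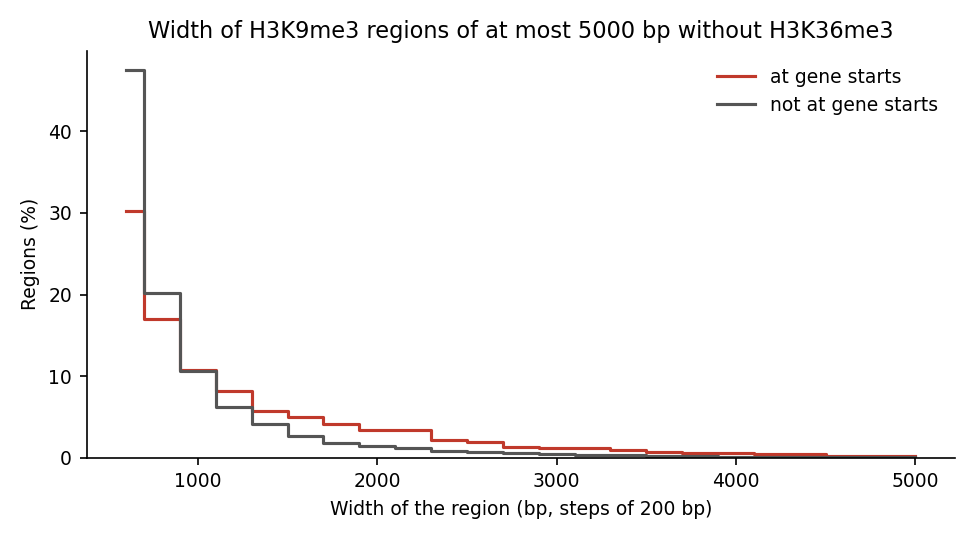
Width of H3K9me3 regions of at most 5000 bp without H3K36me3, in steps of 200 bp (horizontal axis), as a percentage of the 4035 regions at gene starts and of the 25314 others (vertical axis). The smallest width holds 30.2% of the former and 47.5% of the latter, and the line for gene starts lies above the other at every width from 1000 bp (10.8% against 10.6%) to 5000 bp.

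Around the start, H3K9me3 coverage was highest just inside the gene. All autosomal H3K9me3 regions together covered 12.3% of start bases, 16.5% of positions 400 bp downstream, 12.2% at 1000 bp and 8.24% at 2000 bp. The regions at starts, whose decline with distance the rule fixes in part, covered 11.5% of start bases and 15.6% of positions 400 bp downstream, 11.2% at 1000 bp and 3.52% at 2000 bp. These percentages refer to positions inside annotated genes, which is where bins could be retained. Upstream, far fewer starts had an annotated gene at these positions, 4266 at 200 bp and 5123 at 1000 bp, against 21365 and 19832 downstream. Of those upstream positions, the regions at starts covered 10.1% at 200 bp and 5.95% at 1000 bp. The upstream and downstream values thus describe different sets of starts. Regions that covered the start ended a median of 1016 bp after it (quartiles 630 and 1728 bp) and began a median of 112 bp before it (quartiles 53 and 173 bp). Only 200 bp bins that touched annotated genes had been retained, so this upstream end largely follows the bins and does not measure the mark. H3K36me3 showed the reverse course, with 0.532% of start bases covered and 13.5% of positions 5000 bp downstream. Bases of the regions at starts fell in 5′ untranslated regions for 14.5%, in coding sequence for 19.6% and in introns for 52.7%. In the other regions these shares were 0.51%, 5.68% and 82.4%. The window of the rule fixes much of this difference, since first exons lie at starts.

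**Figure D2:**
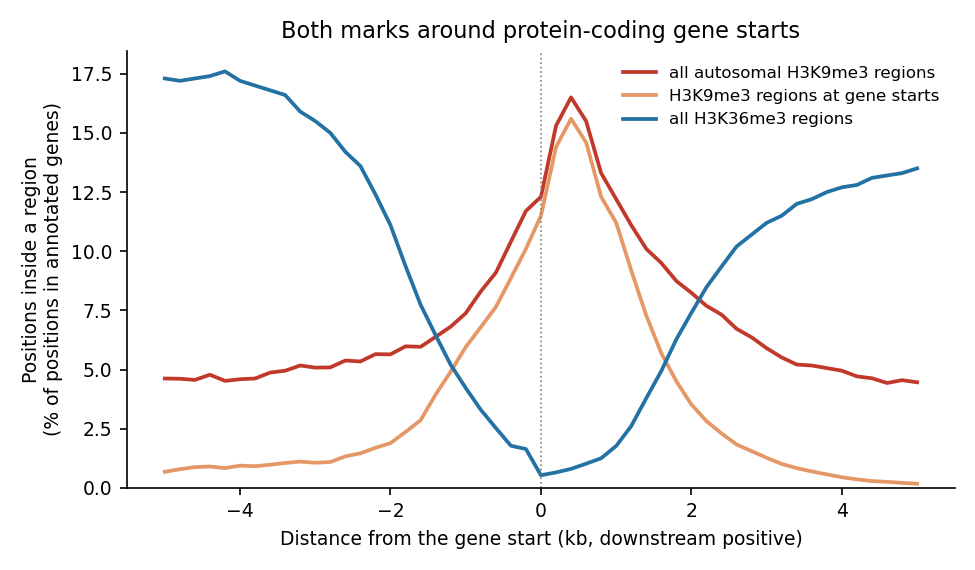
Percentage of positions lying in a region (vertical axis, of positions inside annotated genes) against the distance from the start of a protein-coding gene in kb (horizontal axis, downstream positive), for all autosomal H3K9me3 regions, for those at gene starts and for H3K36me3 regions. Coverage by the regions at gene starts is highest, at 15.6%, at 0.4 kb downstream, where H3K36me3 covers 0.801%. Upstream values rest only on starts with another annotated gene at that position, a smaller and different set.

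The share of starts with a region rose through each class of G+C in the 1 kb around the start, from 4.45% (3.86 to 5.14) below 45% G+C to 18.7% at 55 to 60% and 49.1% (46.1 to 52.2) at 70% or more. Above 45% G+C no interval overlapped that of the next class except at 45 to 55%, where 10.1% (9.08 to 11.3) and 12.3% (11.3 to 13.3) touched. The regions themselves had a median G+C of 60% and an observed to expected CpG ratio of 0.648, whereas the other regions had 46.9% and 0.208. A region of at least 50% G+C with a ratio of at least 0.6 was called CpG island-like. By this measure 57.0% (55.4 to 58.5) of the regions at starts were CpG island-like and 2.30% (2.12 to 2.49) of the others. The rule fixes part of these differences in base composition, since the other regions lay away from starts. Of all starts, with or without a region, 45.1% had a CpG island-like 1 kb around them. At the ends of the range were Slk, a kinase, with 83.5% G+C over 600 bp (chr19:47654001-47654600) and Gm10033 with 33.1% over 800 bp (chr8:71897201-71898000). Kcmf1, a ubiquitin ligase, had 81.5% and Shank3, a scaffold of the synapse, 81.0%, whereas Vmn1r65, a pheromone receptor, and Zfp125 had 33.8% and 33.6%. No input library is among those of this series, and the part of base composition in the recovery of reads was not tested.

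CpG density was examined apart from G+C. Of the starts with a region, 64.6% (63.1 to 66.1) had a CpG island-like 1 kb around them, against 40.6% (39.9 to 41.3) of the others. Within a narrow range of G+C, 55 to 65%, the share of starts with a region was 15.2% where the CpG ratio was under 0.4, 32.3% (29.9 to 34.7) at 0.4 to 0.6, 24.6% (23.2 to 26.1) at 0.6 to 0.8 and 17.6% (16 to 19.3) at 0.8 or more. The highest share was thus at intermediate CpG density and not at the densest islands. In genes without H3K36me3 the corresponding shares were 18.3%, 42.3%, 44.4% and 34%, so that starts with ratios of 0.4 to 0.8 again exceeded both ends. The share of regions at least 2000 bp wide was 12.6% at starts below 45% G+C and 25.2% at 70% or more, with no steady rise between them (11.1% at 45 to 50%, 15.5% at 50 to 55%, 21.5% at 55 to 60%, 18.5% at 60 to 65% and 19.6% at 65 to 70%).

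H3K36me3 further down the same gene went with the absence of H3K9me3 at the start. Of the 4007 genes with a region at the start, 875 (21.8%, 20.6 to 23.1) had H3K36me3 somewhere in the gene, against 38.3% (37.6 to 39.0) of the genes without one. Standardised to the gene lengths of the former, the latter value remained 38.3%. Among CpG island-like starts the difference widened to 29.2% (27.5 to 31) against 70.1% (69.1 to 71.2). The rule removes regions that overlap H3K36me3, but only 88 regions, and without that condition the first value was 23.4%. Where both occurred in a gene, H3K36me3 covered a median of 3600 bp, compared with 4600 bp in genes with H3K36me3 and no region at the start. Whether both marks were in the same cells cannot be told, as the lists pool WT and G34R libraries.

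Combining the features gave the widest contrast. In genes without H3K36me3 the share of starts with a region rose from 4.44% below 45% G+C to 48.7% at 60 to 65% and 69.5% (65.2 to 73.6) at 70% or more. In genes with H3K36me3 it was 4.69% (2.49 to 8.67) in the lowest class, 12.7% at 60 to 65% and 32.3% (28.6 to 36.3) in the highest. The intervals overlapped below 45% G+C and in no class from 45% upwards. The value below 45% depends on the rule. With any H3K9me3 region counted, including those over H3K36me3, it was 4.57% without and 11.5% with H3K36me3 in the gene, the reverse order, whereas at 70% or more it was 72.1% and 33.7%. CpG island-like starts carried a region in 46.5% of genes without H3K36me3 and in 13.2% of genes with it.

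**Figure D3:**
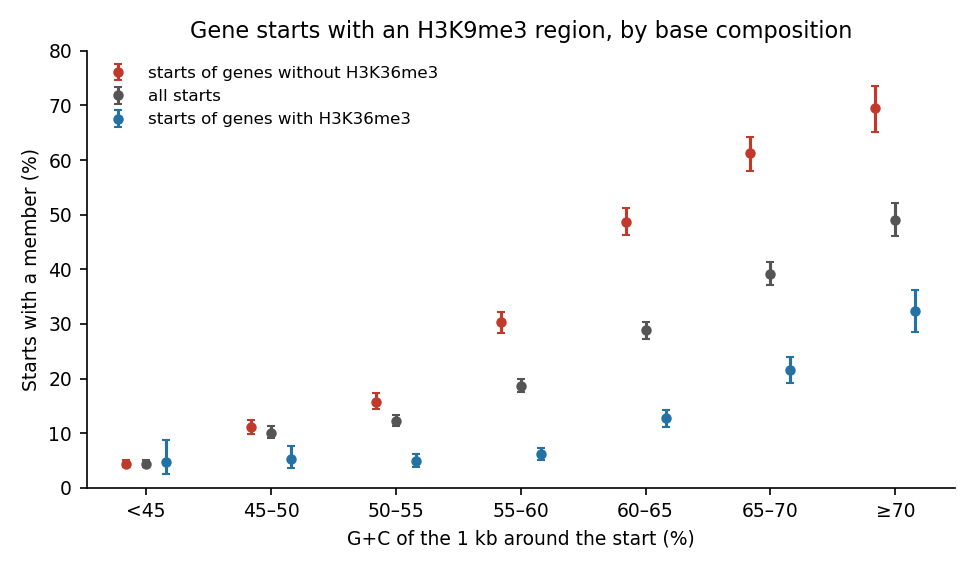
Percentage of gene starts with one of the H3K9me3 regions (vertical axis) by G+C of the 1 kb around the start (horizontal axis), for all starts and for starts of genes with and without H3K36me3, with 95% Wilson intervals. At 70% G+C or more the values are 69.5% without and 32.3% with H3K36me3, while below 45% all 3 points lie between 4.44% and 4.69%.

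Starts with another protein-coding start on the opposite strand up to 1 kb upstream (divergent starts) had fewer of these regions. Pairs of genes whose 5′ ends overlapped did not count as divergent. They had one in 191 of 1562 cases (12.2%, 10.7 to 13.9), against 3816 of the 19856 other starts (interval 18.7 to 19.8%). H3K36me3 lay in 61.5% of the genes with divergent starts and in 33.1% of the rest, so the comparison was repeated within CpG island-like starts of genes without H3K36me3. There the shares were 16.2% (71 of 438, 13.1 to 20.0) and 50.3% (48.6 to 51.9). With H3K36me3 they were 9.64% (7.84 to 11.8) and 13.9% (12.9 to 14.9). Expression of the partner gene was not analysed here.

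Long genes carried a region at the start more often. The share was 14.9% (14.0 to 15.8) for genes under 5 kb, 13.4% at 10 to 20 kb, 22.7% at 50 to 100 kb and 47.0% (43.7 to 50.2) at 200 kb or more. The median length was 25.7 kb with a region and 14.3 kb without. In every one of the 7 length classes fewer of the genes with a region had H3K36me3, from 4.60% against 14.6% below 5 kb to 15.0% against 25.7% at 200 kb or more. Another H3K9me3 region was present elsewhere in 57.8% of the genes with a region and 28.2% of the others. For genes of 5 to 10 kb these values were 50.1% (45.6 to 54.6) and 16.5% (15.1 to 18.1), and at 200 kb or more 94.4% and 90.0%.

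**Figure D4:**
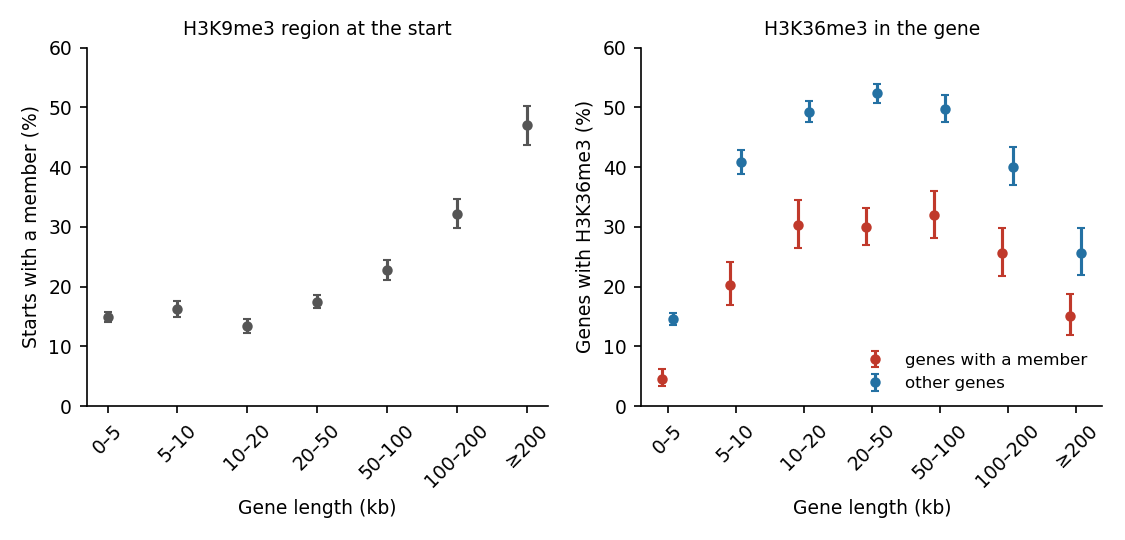
Left, percentage of gene starts with one of the H3K9me3 regions by gene length in kb, and right, percentage of genes with H3K36me3 among genes with and without such a region, with 95% Wilson intervals. The left values range from 13.4% at 10 to 20 kb to 47.0% at 200 kb or more, and on the right the genes with a region are the lower group in each class.

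Gene lists were then read against 18.7%, the share over all starts, and, because G+C differed between lists, against 35.2% for starts with 60% G+C or more and 11.7% for starts below 60%. In genes without H3K36me3 these reference shares were 55.9% and 13.9%. Lists are described by their counts, and no list was tested.

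Transcription factors of development had the highest share of the lists by the rule. Of 106 starts, 71 (67.0%, 57.6 to 75.2) carried a region, and 99 carried an H3K9me3 region of any kind, the further 28 being excluded by the rule. Among the 7 starts with none were those of Runx1, Runx2, Runx3, Hnf4a and Myf5. The share was 75.9% at starts with 60% G+C or more and 57.7% below. H3K36me3 was found in 3 of the 106. In those without it, a region was present at 41 of 53 starts with 60% G+C or more and at 29 of 50 below, the latter above the reference of 13.9%. The regions were wide, with a median of 2400 bp, and 60 of 73 covered the start. At Pax6 the region spanned 4800 bp, with its ends at -3052 and 1747 bp from the start (chr2:105506001-105510800). Msx1, a homeobox factor of limb and craniofacial development, had 4400 bp (chr5:38211601-38216000), and so did Irx2 (chr13:72766201-72770600) and Wt1 (chr2:104965601-104970000). Regulators of all germ layers were among the 71, such as Gata4 and Gata6 (endoderm and heart), T and Mixl1 (mesoderm) and Neurog1 and Olig1 (nervous system). The share depends on the width limit. It was 92.5% without the limit, below the Hox genes, and 25.5% with a limit of 2000 bp, below keratins (43.1%), ion channels (39%), germline genes (33.8%) and genes of DNA methylation (26.7%).

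All 40 Hox starts carried an H3K9me3 region, but only 19 (47.5%, 32.9 to 62.5) by the rule, and the other 21 lay in regions wider than 5000 bp. Hox genes encode the homeobox factors that pattern the body axis. H3K36me3 was found in 0 of the 40. Hoxc8 (chr15:102818601-102823400) and Hoxd8 (chr2:74541201-74546000) had regions of 4800 bp, Hoxb3 one of 4400 bp and Hoxd9 one of 3400 bp. The regions at Hox starts had the largest median width of the lists, 2600 bp. Their share ranged from 17.5% with a limit of 2000 bp to 100.0% without a limit.

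Ion channel genes followed, with 86 of 164 starts (52.4%, 44.8 to 59.9). At 60% G+C or more the share was 77.6%, and below it was 35.1%. In genes without H3K36me3 a region was present at 46 of 53 starts of the former class. The potassium channel genes Kcna1 (4200 bp, chr6:126591801-126596000), Kcng3 (4000 bp) and Kcns1 (3800 bp) and the T-type calcium channel gene Cacna1g (3600 bp) were among the widest, together with Cacng4 (4200 bp), an auxiliary subunit of calcium channels and glutamate receptors. All 5 of these regions covered the start. Solute carriers, the membrane transporters, stood nearer the background at 86 of 343 (25.1%, 20.8 to 29.9), with Slc9a2, a sodium and hydrogen exchanger, and Slc30a3, a zinc transporter of synaptic vesicles, at 3400 and 3000 bp.

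Germline and meiosis genes, which are silenced in somatic cells in large part by DNA methylation, had a region at 27 of 65 starts (41.5%, 30.4 to 53.7). The widest was at Mei1, a gene required for meiotic recombination (4000 bp, chr15:81900401-81904400), and was followed by Mael (2600 bp, chr1:168166401-168169000), Tdrd6 (2400 bp), a Tudor protein of the chromatoid body, and Boll (2200 bp), an RNA-binding protein of spermatogenesis. The others with a region included Sycp1, Sycp2 and Syce1 of the synaptonemal complex and the Tudor genes Tdrd1, Tdrd7 and Tdrkh, but genes of the same kinds were also among the 38 starts with no H3K9me3 region. The latter included Sycp3 and Syce2, Tdrd9 and Tdrd12, Piwil1, Piwil2 and Piwil4 of the piRNA pathway, and Dazl, Dmc1, Spo11 and Rec8. Of 29 regions, 20 covered the start, and the median width was 1200 bp. H3K36me3 was found in 14 of the 65 genes, and without it 8 of 9 starts with 60% G+C or more and 17 of 42 below had a region.

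In lists with few regions, single members were looked at. Of 75 genes for cytosolic ribosomal proteins 3 had a region (4.0%, 1.37 to 11.1), and they were Rps26 and the testis-expressed paralogues Rpl10l (also in the germline list, chr12:67384601-67385400) and Rpl39l (chr16:10170401-10171600). The other paralogues Rpl3l, Rpl7l1 and Rpl22l1 had no region by the rule. A further 3 starts had a region that the rule excludes for its overlap with H3K36me3, which would make 6 of 75 (8.0%). H3K36me3 lay in 69 of the 75 genes. Of 67 histone genes 2 had one, Hist1h2aa and Hist1h2ba, which encode histones of the testis and shared a single region of 800 bp (chr13:24025801-24026600), whereas Hist1h1t, the H1 of the testis, had no H3K9me3 region at the start. H3K36me3 was found in 0 of the 67. Among 41 proteasome starts the 5 with a region belonged to Psmb8, Psmb9 (annotated at 2 starts), Psmb10 and Psmd3. Of these, Psmb8, Psmb9 and Psmb10 encode the catalytic subunits of the immunoproteasome, which interferon induces, and Psma8, a subunit of the testis, had no H3K9me3 region at the start. For the proteasome the region at Psmb8 was the widest, at 2000 bp (chr17:34334601-34336600), and it covered the start. These members were singled out after their values were seen.

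Imprinted genes, expressed from one parental allele, had a region at 24 of 57 starts (42.1%, 30.2 to 55), and these regions had a median width of 2300 bp. Nap1l5 had 3800 bp (chr6:58854601-58858400), Peg3 3600 bp (chr7:6679601-6683200) with 6200 bp of H3K36me3 elsewhere in the gene, and the shared start of Sgce and Peg10 3400 bp (chr6:4696601-4700000). Magel2 and Rasgrf1 each had 3400 bp, and Plagl1 2400 bp (chr10:12810401-12812800). Snrpn, Mest and Gnas had no H3K9me3 region at the start, whereas Igf2 and Grb10 had one that the rule excludes. The share was 17.5% with a limit of 2000 bp on width, 43.9% without a limit and 56.1% with the starts of all protein-coding transcripts. The files do not separate the parental alleles.

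Keratins differed from the lists above in that their starts were poor in CpG. Of 51 starts, 22 (43.1%, 30.5 to 56.7) had a region while 0 of the 51 were CpG island-like. Below 60% G+C the share was 44.9%, against 11.7% for all such starts. Of 23 regions 14 lay downstream of the start and 9 covered it. Krt16 had 1800 bp, from 476 to 2275 bp after the start (chr11:100108001-100109800), and Krt8, a keratin of simple epithelia, had 1000 bp from 573 bp onwards (chr15:101833201-101834200). The other 29 keratin starts, among them those of Krt5, Krt7, Krt10 and Krt19, had no H3K9me3 region. By count, the 1 Mb of chromosome 15 with most keratins of the basic type (chr15:101000001-102000000) had more starts with a region, 19 of 38, than any other 1 Mb. Not all of the 19 were keratins, as Acvr1b and Igfbp6 were among them, and the count depends on how many starts lie in each 1 Mb. Keratins share sequence. The central 50 bases occurred once in the assembly in 22 of the 23 regions, and the part of shared sequence in the placing of reads was not tested. Keratin-associated proteins, which are proteins of hair, had 5 of 46 (10.9%, 4.73 to 23.0).

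Zinc finger genes named Zfp, many of them KRAB repressors of retroelements that lie in clusters, had a region at 48 of 362 starts (13.3%, 10.1 to 17.1), against 18.7% of all starts. Without chromosome 8 these were 36 of 335 (10.7%) and 18.1%. On all autosomes, the share of Zfp starts was 30.2% at 60% G+C or more and 7.97% below. H3K36me3 lay in 55.8% of these genes. In those without it a region was present at 12 of 24 starts with 60% G+C or more and at 14 of 136 below, beside the references of 55.9% and 13.9%. The widest regions were at Zfp703 (4200 bp, chr8:28087801-28092000), a transcriptional corepressor, and Zfp768 (2600 bp, chr7:134486401-134489000). The related Zbtb, Zscan and Zkscan genes had 12 of 62 (19.4%, 11.4 to 30.9), near the background. In a list of 12 example genes, 2 starts had a region by the rule, 3 had one that the rule excludes and 7 had no H3K9me3 region. Zfp358 and Ankrd13a had regions of 600 bp, over the start and from 115 bp after it, respectively (chr8:3493001-3493600 and chr5:115224801-115225400). Repin1, Zfp629 and Hn1 had an H3K9me3 region at the start that the rule excludes.

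Low shares were also found in genes of the ES cell state and in the olfactory receptors. Of 27 pluripotency genes, 1 (3.70%, 0.657 to 18.3) had regions by the rule, and the count was 0 with a window of 500 bp and 3 with overlap of H3K36me3 not considered. The gene was Tbx3, with one region from 923 to 2122 bp and one from -1477 to -878 bp relative to the start. Pou5f1, Nanog, Sox2, Klf4, Esrrb and Zfp42 had no H3K9me3 region at the start, while Klf2 and Fgf4 had one that the rule excludes. H3K36me3 lay in 24 of the 27 genes. Over all genes with H3K36me3, the share was 4.82% at 50 to 55% G+C, 6.11% at 55 to 60% and 12.7% at 60 to 65%. The median G+C at the starts of the pluripotency list was 55.5%. Olfactory receptors had 42 of 1106 (3.8%, 2.82 to 5.09). None of their starts were CpG island-like and H3K36me3 was found in 1 gene. The share for starts below 45% G+C in genes without H3K36me3 was similar, 4.44%. Mitochondrial ribosomal proteins had 4 of 77 (5.19%, 2.04 to 12.6), with H3K36me3 in 60 of the genes.

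Genes listed for H3K9 methylation, H3K36 methylation, H3.3 handling or DNA methylation were also examined. These lists are broad, and a gene in them need not act on the trimethylated marks. Of 27 starts of genes of H3K9 methylation the 3 with a region (11.1%, 3.85 to 28.1, and 22.2% with the starts of all transcripts) were Prdm16 (4200 bp, chr4:154006801-154011000), Phf2 and 1 of the 2 annotated starts of Atf7ip, a cofactor of Setdb1. The KDM4 genes Kdm4a, Kdm4b, Kdm4c and Kdm4d had no H3K9me3 region at the start. Of 20 genes listed for H3K36 methylation and H3.3 handling 5 had a region (25%, 11.2 to 46.9). Whsc1, Smyd2, Setd3, Kdm2a and Ubn2 had regions of 600 to 1000 bp, and H3f3a and H3f3b had none. The starts of these 20 genes were rich in G+C, with a median of 67.3%, and H3K36me3 lay in 17 of the genes. Dnmt3a (1800 bp, chr12:3806201-3808000) and Dnmt3b (600 bp, chr2:153475401-153476000), the de novo DNA methyltransferases, were among the 4 of 15 genes of DNA methylation with a region (26.7%, 10.9 to 52). The intervals of all 3 lists include the share over all starts, 18.7%. Both also had H3K36me3 in the gene, 4200 bp at Dnmt3a and 13200 bp at Dnmt3b.

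**Figure D5:**
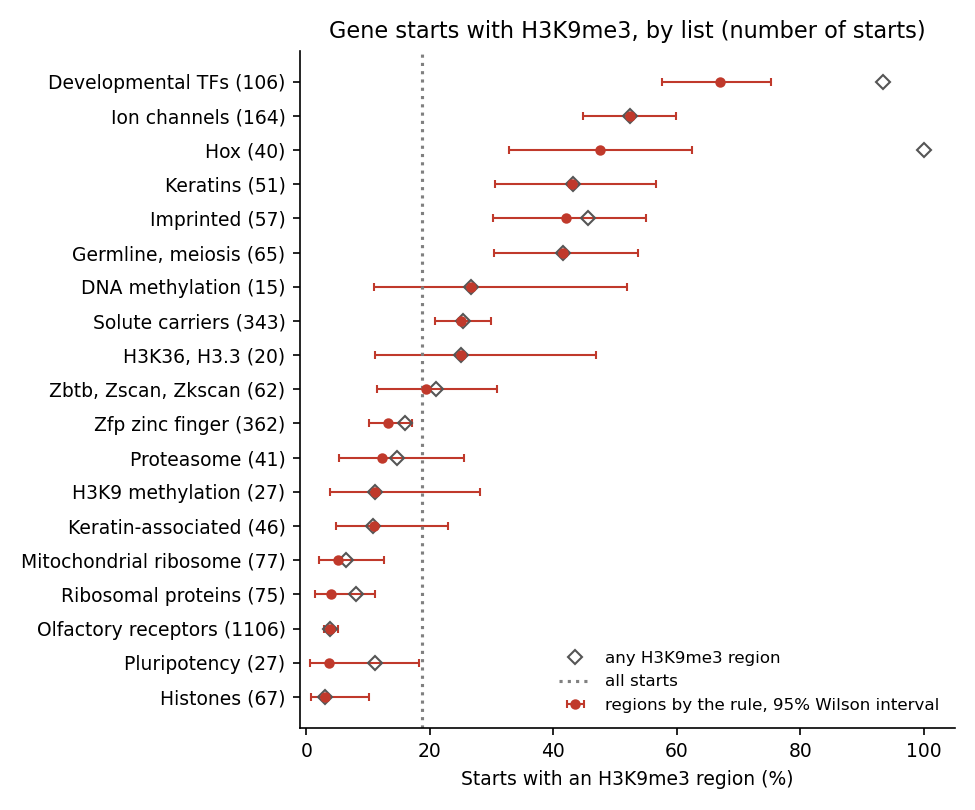
Percentage of gene starts in each list (number of starts in brackets) with one of the H3K9me3 regions, as filled points with 95% Wilson intervals, and with any H3K9me3 region, as open diamonds. The dotted line marks 18.7%, the share of all starts, and developmental transcription factors (67.0%) and histones (2.99%) lie at the ends.

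Gene families were also formed from the letters of the symbols, after the lists had been examined. Of 95 families with 20 or more starts, the highest shares were those of the semaphorins (Sema, 11 of 20), which guide axons, the cadherins (Cdh, 11 of 23), which join cells, and the keratins. Phosphodiesterases (Pde, 11 of 27), fibroblast growth factors (Fgf, 8 of 20) and collagens (Col, 16 of 42) followed. These are the highest of many values, to be read beside 18.7% over all starts, and no adjustment was made for G+C or H3K36me3.

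Motifs of common promoter factors were searched in the 250 bases before and 50 after each start, on both strands. GGGCGG, the GC box, occurred at 59.1% of starts with a region and 40.2% of the others (43.7% of all), but at 79.7% and 83.2% of those with 60% G+C or more. CCGGAAG, the site of ETS factors, was rarer at starts with a region. It occurred at 6.64% (5.91 to 7.45) against 11.9% (11.4 to 12.4), and at 60% G+C or more at 7.27% against 18.5%. The share over all starts was 10.9%, and below 50% G+C the values were 3.43% and 2.78%. The NRF1 motif GCGCATGC (2.45% against 3.56%, 3.35% of all) and the YY1 motif AAGATGGC (1.97% against 3.62%, 3.31% of all) were likewise rarer (below 50% G+C, 0.857% against 0.722% for GCGCATGC). CTCGCGAG was at 1.12% (0.84 to 1.5) and 1.19% (1.04 to 1.37), with 1.18% of all starts, and at 60% G+C or more at 1.60% and 3.16%. TATAAA was found at 8.88% and 14.6% (13.5% of all), but that order held only below 50% G+C (22.5% and 28.1%). It was the other way between 50 and 60% G+C, 11.4% and 9.09%, and at 60% or more, 4.65% and 2.94%. CCAAT was at 32.1% and 38.8% (37.6% of all). TGACGTCA, the cyclic AMP response element, was at 2.30% and 2.31% (2.31% of all). The E-box CACGTG was at 9.18% and 7.46%, and at 7.78% of all starts, while at 60% G+C or more the order was the other way, 10.1% and 11.6%. Its longer form TCACGTGA, which contains CACGTG, was at 0.898% and 1.09% (1.06% of all). At germline genes CACGTG occurred at 21 of 65 starts, and at 12 of the 27 with a region. The upstream stretches of Brdt and Wt1 printed above hold it (the letters caCGtg). GCGCATGC occurred at 10 of the 65 germline starts, and at 4 of the 27 with a region. A match describes letters in the window and not binding.

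The regions were spread over all 19 autosomes. The share of starts with a region was highest on chromosome 8 (29.9%, 27.3 to 32.7), followed by chromosomes 12 (25.7%) and 15 (24%). It was lowest on chromosome 16 (14.4%), next to chromosomes 2 (14.5%) and 7 (14.8%). Without chromosome 8 the share over all starts was 18.1%. The median G+C around starts was 56.9% on chromosome 8, 57.2% on chromosome 12 and 57.3% on chromosome 15, and it was 57.1% on chromosome 5, where 19.6% of starts had a region. The number of copies of the cells' chromosomes was not analysed here. Repeated sequence was rare in the regions at starts, the central 50 bases of which occurred once in the assembly in 96.6% (96.0 to 97.1) and more than 10 times in 0.173%. For the other regions these values were 94.8% and 1.15%. Reads with many alignments had been removed before the lists were made.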

How the data were processed

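ChIP-seq reads of 4 libraries (H3K9me3 and H3K36me3 in WT and G34R cells) were processed by the authors. Reads were aligned to mm9 with Bowtie 1.0.0 under a limit on multiple alignments, duplicates were removed, and reads in 200 bp bins were scaled to library size and matched between cell types in SeqMonk. Bins in UCSC genes above a high percentile in either cell type were joined with BedTools 2.20.1. The deposited files hold 1 list of regions per mark, with chromosome, start and end only, and no value, other measure or depth. How the size filter of the study was applied is unclear, and the smallest width found was 600 bp.

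Lists were overlapped (from 1 bp) with the protein-coding genes of GENCODE vM1 on NCBIM37, with Python 3.11.15, numpy 2.4.6, pandas 2.3.3 and pysam 0.24.0. Copies are exact matches of 50 bases on either strand. Shares carry 95% Wilson intervals. Members, lists, motifs and alternatives were chosen with earlier results of these data known. Genes named were the 10 widest, those reaching most starts, those at the ends of the G+C range, the widest 5 of each list, and genes shown by the study. Names of list members without a region, with other sizes, or in families were chosen after their values were seen. The overlap code was tested on simulated data, with 0 differences from direct comparison in 4000 comparisons. Alternatives changed the window, start, width limit, overlap, copies, chromosome 8, base composition and minimum H3K36me3. X and Y were left out by the rule, and sequences of chromosome 18 were not printed. Some genes and sequences that the rules name are not reported here.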

Additional observations from a re-analysis of the deposited data

How the results depend on the processing

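No paired analysis was possible because each combination of cell type and mark had 1 library, and the lists pool both cell types. A stricter threshold on enrichment was not run, as the lists hold no values, and the unknown depth limits any statement on starts without a region. Of 57 values computed for the main results under the alternatives, 35 stayed within the interval of the reported value, or within 1.5 times for the number of regions. The causes of the shifts were not tested.

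With a window of 500 bp around the start, 16.9% of starts had a region, 68.2% of regions covered the start and 68.3% of starts with a region were CpG island-like. With 2 kb these were 20.8%, 47.4% and 60.9%, and with the starts of all protein-coding transcripts 20.8%, 62.1% and 60.2%. A limit of 2000 bp on width gave 15.8%, 54.8% and 62.8%, while 34.7% of starts with 65% G+C or more had a region (42.6% as reported) and H3K36me3 lay in 24.2% of the genes with one. With G+C taken in 300 bases the share at 65% or more was 32.0%, and with a stricter class 55.5% were CpG island-like. The share of genes with H3K36me3 was 23.4% with overlap not considered, 20.6% with no H3K36me3 within 1 kb, 19.8% without chromosome 8 and 18.2% with at least 1000 bp of H3K36me3. The share of starts was 18.1% for regions with a single copy and 18.1% without chromosome 8. Under 9 alternatives each gene list stayed on its side of the share over all starts, except H3K9 methylation (8 of 9, up to 22.2%) and the Zbtb, Zscan and Zkscan genes (6 of 9, 16.1 to 21.0%). That share was the one under the same alternative. Against 18.7%, the Hox and the imprinted genes, at 17.5% with the limit of 2000 bp, were also below.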
